A study of Mus musculus with 12 samples.

Results

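Expression in cells carrying both CSF3R_T618I and CEBPA_V314VW was set against expression in cells carrying CEBPA_V314VW alone, to describe what an activated cytokine receptor does in cells that already hold an altered transcription factor. The arrays were taken by their titles. This gave 6 of the 12 arrays in the study, 3 per group, and 22142 of the 22206 gene probe sets, those with a transcript cluster identifier (the other 64 are unmapped). All cells were HoxB8 cells, a mouse progenitor line grown with estrogen and stem cell factor, which matures towards neutrophils when estrogen is taken away. Each culture had been transduced with a pair of retroviral vectors, one marked with GFP and one with mCherry, sorted for both fluorescent proteins, rested for 1 week, washed 4 times and kept without estrogen for 24 hours before RNA was taken. Cells with both mutations carried CEBPA_V314VW in the GFP vector and CSF3R_T618I in the mCherry vector. Cells with CEBPA_V314VW carried it in the GFP vector beside an empty mCherry vector. The remaining arrays, 3 from cells with CSF3R_T618I and an empty GFP vector and 3 from cells with a pair of empty vectors, were used to ask whether the receptor had a different effect in the absence of CEBPA_V314VW. They also entered the main comparison, since the spread of each probe set between replicates was estimated from all 12 arrays. The transgenes were human and driven by the viral vector, the labels name no change to the cells' own Csf3r or Cebpa genes, and the series describes the 3 arrays of a group as biological replicates.

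CSF3R is the receptor for granulocyte colony-stimulating factor. It has no kinase of its own and signals through JAK kinases and STAT factors, and through MAP kinases, to drive growth and neutrophil maturation of myeloid precursors; the T618I change lies close to the membrane and leaves the receptor active without ligand. CEBPA is a basic leucine zipper factor that opens the granulocytic programme, and V314VW is an insertion in its C-terminal DNA-binding region, of the kind found in acute myeloid leukemia. Maturing neutrophils first fill primary granules (myeloperoxidase, elastase), then secondary and tertiary granules (lactoferrin, gelatinase), and last gain chemokine receptors.

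Values are log2 probe set signals, so a difference of 1 is 2-fold, and ± after a difference is its standard error. Levels are comparable between arrays for one probe set but not between probe sets. A probe set was called changed at a limma adjusted p below 0.05 (Benjamini-Hochberg, over all gene probe sets) and a change of at least 2-fold; "rose" and "fell" of a named gene or list member use the adjusted p alone. The replicate arrays of these groups correlated at r = 0.9888 to 0.9931, and arrays of different groups at 0.9792 to 0.9845. Array C with both mutations had the highest mean of the background controls of all 12 arrays, 5.27 against a lowest of 4.978, and a group mean at or below 5.27 is called background here. Without that array 305 probe sets were called higher and 136 lower, against 311 and 126 with it. The mouse Csf3r probe set read 11.80, 11.67 and 11.70 with both mutations, against 10.93, 10.94 and 10.88 with CEBPA_V314VW, a rise of 0.81 ± 0.10 (adjusted p = 0.000119). The mouse Cebpa probe set read 12.17, 12.07 and 12.40 with both mutations and 12.00, 12.14 and 11.90 with CEBPA_V314VW, overlapping ranges (adjusted p = 0.407), while it averaged 10.72 ± 0.11 with CSF3R_T618I and 11.03 ± 0.04 with empty vector (SD, n = 3 each). Whether these mouse probes also read the human transgenes was not tested. Hoxb8, the estrogen-controlled factor that holds the line immature, read 11.28, 10.86 and 11.26 with both mutations and 11.00, 10.97 and 10.98 with CEBPA_V314VW (adjusted p = 0.638).

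With both mutations, 311 of 22142 probe sets were called higher (1.4%) and 126 called lower (0.569%) than with CEBPA_V314VW. The rises were also larger: 103 of the 311 were at least 4-fold, 39 at least 8-fold and 12 at least 16-fold, whereas 8 of the 126 falls were at least 4-fold and 0 at least 8-fold. The median size of a called change was 1.54 for rises and 1.26 for falls on the log2 scale. In all 311 and all 126 the arrays of the groups did not overlap, which was the case for 9.38% of all probe sets in the upward and 13.1% in the downward direction. The median difference over all probe sets was -0.03. In bulk RNA, fewer cells of a type and less RNA per cell cannot be told apart. Of the rises, 54 started from a CEBPA_V314VW group at background, and of the falls 10 ended there with both mutations; for such genes the fold is given as a lower limit, with the dim group set, array by array, at its own value or the background control mean, whichever was higher. A symbol was available for 282 of the higher and 112 of the lower probe sets.

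The rises were led by Lipg, stefins, S100 proteins and immune receptors. The endothelial lipase Lipg, an enzyme that cleaves phospholipids of high-density lipoprotein, rose most. Its signal was 12.46, 12.40 and 12.23 with both mutations, against 7.12, 6.59 and 6.56 with CEBPA_V314VW, a difference of 5.61 ± 0.16 or 48.7-fold (adjusted p = 6.75e-10). S100a8, 1 chain of the calcium-binding calprotectin dimer, read 11.86, 11.75 and 11.54 with both mutations and 6.99, 7.56 and 6.96 with CEBPA_V314VW, a 23.4-fold rise (adjusted p = 9.64e-09). Its partner S100a9 read 12.55, 12.34 and 12.12 with both mutations, against 7.61, 8.70 and 7.25 with CEBPA_V314VW, where array B stood above the other two (difference 4.48 ± 0.30, adjusted p = 7.58e-07). For each of these genes the lowest array with both mutations lay far above the highest with CEBPA_V314VW. Ifitm6, of the interferon-induced transmembrane family, rose by 5.20 ± 0.30, with values of 11.92, 11.66 and 11.50 with both mutations against 7.33, 6.23 and 5.93 with CEBPA_V314VW. Its neighbour Ifitm3 was also called higher. Neither is on the interferon response list, of which 1 of 19 genes rose (5.26%, against 3.57% of all probe sets).

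Stefins, small inhibitors of cysteine cathepsins, made up 6 of the 15 largest rises. Stfa1, which the study names, read 10.84, 10.64 and 10.54 with both mutations and 6.48, 6.88 and 6.57 with CEBPA_V314VW (16.3-fold, adjusted p = 1.37e-09). Stfa2l1 read 11.90, 11.63 and 11.15 with both mutations and 6.59, 5.90 and 6.20 with CEBPA_V314VW (40.4-fold), and Stfa2 read 11.66, 11.44 and 10.98 with both mutations and 6.17, 5.61 and 6.29 with CEBPA_V314VW (40.4-fold). Cstdc4, Csta2 and Cstdc5 differed by 4.33 ± 0.12, 4.11 ± 0.16 and 3.85 ± 0.11, with no overlap between the groups, as for every called rise. These genes are near copies of each other on chromosome 16, so a probe set may read more than 1 of them and the family is better taken as a whole than gene by gene.

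The other leading rises were immune receptors and secreted proteins. Sirpb1c, a signal-regulatory protein, read 9.94, 9.90 and 9.25 with both mutations and 5.35, 5.56 and 5.83 with CEBPA_V314VW. Lilr4b and Lilrb4a, immunoglobulin-like receptors, differed by 4.06 ± 0.19 and 4.04 ± 0.21. Chil1, a chitinase-like lectin, read 9.97, 10.04 and 9.96 with both mutations and 6.33, 6.01 and 6.23 with CEBPA_V314VW (13.9-fold). Serpinb9e, of the granzyme B inhibitor family, was at background with CEBPA_V314VW (4.20, 4.25 and 3.56) and read 7.96, 7.88 and 7.43 with both mutations, at least 6.45-fold higher. Sirpb, Lilr, Chil and Serpinb9 genes all have close relatives that their probes may also read.

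**Figure D1:**
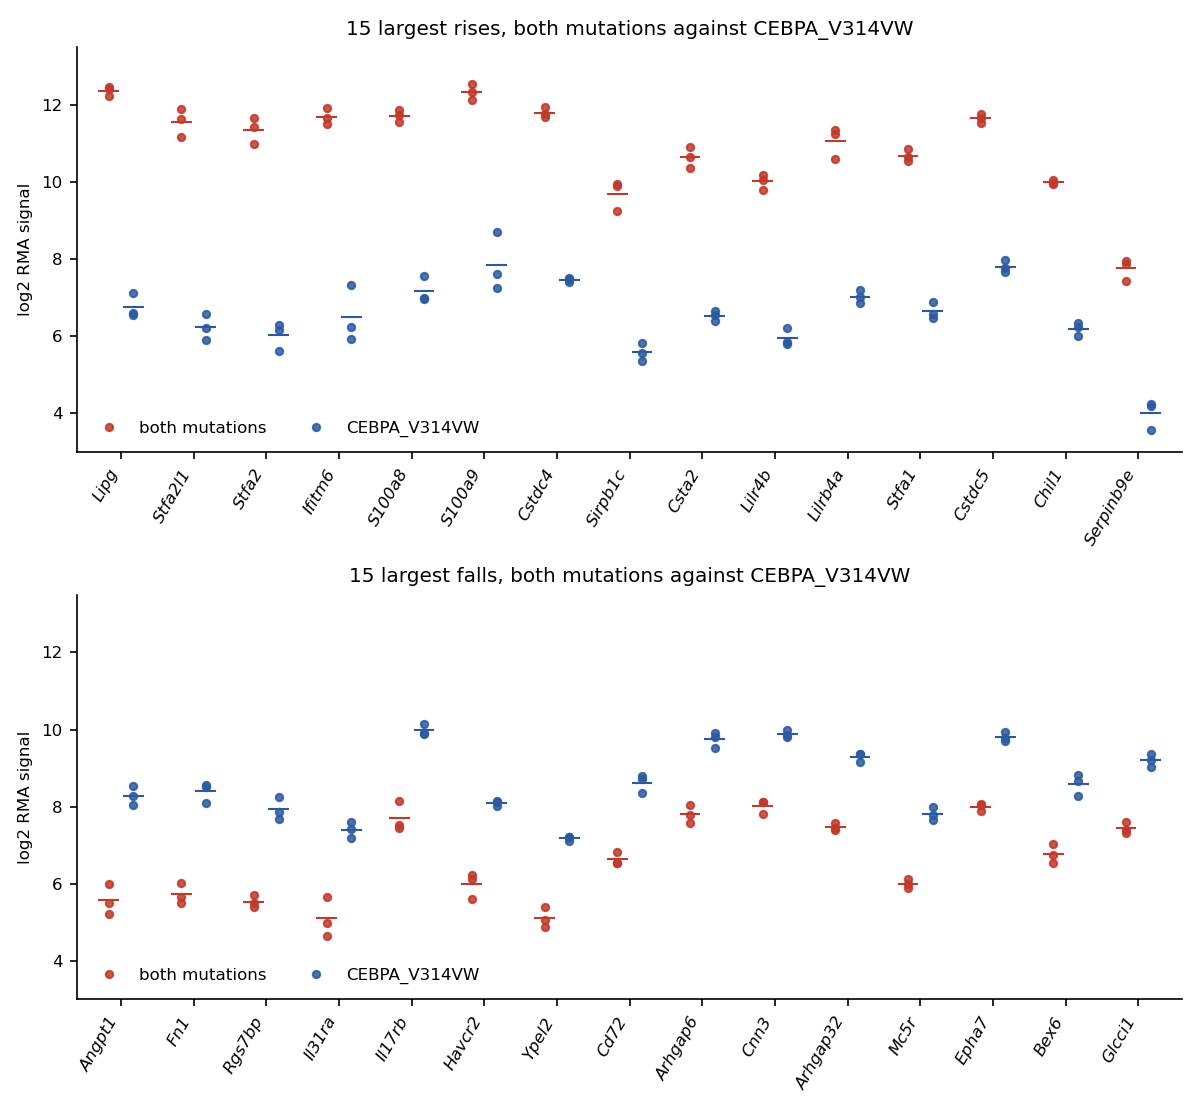
Log2 signal of the 15 genes with the largest called rises (top) and falls (bottom); each point is 1 array, each bar a group mean of 3 arrays, with both mutations in red to the left of CEBPA_V314VW in blue. The groups are apart for every gene drawn, as for every called probe set. The largest rise is 5.61 (Lipg) and the largest fall -2.71 (Angpt1) on the log2 scale.

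The falls were led by Angpt1, fibronectin and receptor genes. Angpt1, a ligand of the Tie2 receptor made by blood progenitors, read 5.21, 5.50 and 6.00 with both mutations and 8.27, 8.04 and 8.53 with CEBPA_V314VW, and fell by 2.71 ± 0.21, which is 6.55-fold (adjusted p = 3.44e-06). Fn1, fibronectin, read 5.66, 6.03 and 5.50 with both mutations and 8.56, 8.52 and 8.10 with CEBPA_V314VW (6.34-fold lower, adjusted p = 2.05e-07). Il17rb, a receptor chain for interleukin-25, read 7.52, 7.45 and 8.14 with both mutations and 9.89, 10.15 and 9.90 with CEBPA_V314VW (4.84-fold lower). In each the highest array with both mutations stayed below the lowest with CEBPA_V314VW, as in every called fall. Havcr2, the inhibitory receptor TIM-3, fell by 2.10 ± 0.21 (adjusted p = 2.49e-05). Il31ra, a cytokine receptor, fell at least 4.47-fold, with values of 4.99, 4.66 and 5.66 with both mutations that average at background, against 7.60, 7.19 and 7.43 with CEBPA_V314VW. Ypel2 likewise ended at background and fell at least 4.05-fold.

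The remaining leading falls were between 3.4- and 5.24-fold. They were Rgs7bp, which binds a regulator of G protein signalling (-2.39), the lymphocyte receptor Cd72 (-1.98), the GTPase-activating proteins Arhgap6 (-1.95) and Arhgap32 (-1.82), the actin-binding calponin Cnn3 (-1.87), the melanocortin receptor Mc5r (-1.82), the ephrin receptor Epha7 (-1.81), Bex6 (-1.81) and Glcci1 (-1.77), all as log2 differences. None of them overlapped between the groups, as held for every called fall.

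Receptor feedback and STAT target genes were mostly higher with both mutations. Of 18 measured members of the list, 11 rose, 1 fell and 6 did not pass, with a median difference of 0.61. The methods' t-test, run on the same arrays without moderated variances and with the same adjustment, passed fewer members of most lists. It passed 4 higher and 1 lower here, and its count is given with each list below. The name refers to the study's general statistics, which list this test or an analysis of variance for all data. For the arrays the study names its software but not the test applied, so these counts are not the study's own calls. Over all 22142 probe sets 3.57% rose and 3.08% fell by the adjusted p, and the median was -0.03. Il4ra, the interleukin-4 receptor chain, read 11.59, 11.55 and 11.52 with both mutations, against 9.27, 9.37 and 9.20 with CEBPA_V314VW (4.83-fold, adjusted p = 1.41e-08). Bcl3, an atypical IkB protein, rose by 2.13 ± 0.16. Socs3, the inhibitor that binds the activated CSF3 receptor, read 8.58, 8.83 and 8.59 with both mutations and 7.49, 7.48 and 7.43 with CEBPA_V314VW, a rise of 1.20 ± 0.10 (adjusted p = 5.86e-06). These groups were well apart. Junb (1.16), Cish (0.84), Il6ra (0.82), Osm (0.81), Jak2 (0.80) and Stat3 (0.53) rose by less. Socs2, another feedback inhibitor, went the other way and read 7.76, 8.12 and 8.06 with both mutations, against 9.20, 9.32 and 9.28 with CEBPA_V314VW, and fell by 1.28 ± 0.15 (adjusted p = 0.000115). Stat5a, Stat5b, Jak1, Pim1, Cebpb and Socs1 did not pass, with differences from -0.24 to 0.53.

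Among 22 cytokine receptor genes 9 rose, 1 fell and 12 did not pass (median 0.32), against 4 higher and 1 lower by the methods' t-test. Il21r, the interleukin-21 receptor and the neighbour of Il4ra on chromosome 7, was at background with CEBPA_V314VW and at least 3.05-fold higher with both mutations. Chains for other growth factors moved unevenly. Csf1r, the macrophage colony-stimulating factor receptor, rose by 1.14 ± 0.22, Csf2ra by 1.12 ± 0.12 and Csf2rb, the beta chain shared by the granulocyte-macrophage colony-stimulating factor and interleukin-3 receptors, by 0.85, while Il3ra (-0.31) did not pass and Il5ra was at background in both groups. Csf1r values were 8.07, 7.38 and 7.59 with both mutations and 6.84, 6.74 and 6.05 with CEBPA_V314VW, a narrower gap than for the genes above. The member that fell was Il17rb. Interferon receptor chains did not pass, with differences between 0.02 and 0.29 for Ifngr1 and Ifngr2.

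Promoter windows of the rising genes were read for STAT and C/EBP letters, from RefSeq (assembly GRCm38.p6), 250 bases before to 50 after the gene start. The STAT letters TTCNNNGAA (the same on both strands, and including the stricter TTCCNGGAA) were found in 31 of 235 windows of called higher genes (13.2%), 5 of 85 of called lower genes (5.88%) and 1239 of 15676 of all tested genes (7.9%). The C/EBP letters TTGCNNAA or their reverse complement were found in 42 of 235 (17.9%), 4 of 85 (4.71%) and 1576 of 15676 windows (10.1%). TTCCNGGAA was in 1.28% of the higher, 2.35% of the lower and 1.22% of all windows, the stricter C/EBP form TTGCGCAA in 0, 0 and 0.211%, and the E2F letters TTTCCCGC or TTTGGCGC in 2.13%, 2.35% and 2.22%. These shares are a description without a test, and a match is not evidence of binding. The windows shown were chosen because they hold a match. Among other genes of the STAT list that rose, Cish held 2 STAT matches, and Il4ra, Bcl3, Junb, Il6ra, Jak2, Stat3 and Pim2 held 0. Windows of 3 rising genes with the STAT letters follow, those of the feedback inhibitor Socs3 (chr11:117969317-117969616, minus strand), the repressor Bcl6 (chr16:23988803-23989102, minus strand) and the decoy receptor Il1r2 (chr1:40085843-40086142, plus strand), each read 5′ to 3′ on the gene's strand with the match in capitals.
Socs3: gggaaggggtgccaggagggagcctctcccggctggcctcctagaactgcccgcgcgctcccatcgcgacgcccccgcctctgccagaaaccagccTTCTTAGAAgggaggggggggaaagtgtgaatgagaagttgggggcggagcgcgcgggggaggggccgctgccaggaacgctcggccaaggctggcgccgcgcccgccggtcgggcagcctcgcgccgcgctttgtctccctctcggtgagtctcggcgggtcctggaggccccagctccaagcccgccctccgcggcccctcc
Bcl6: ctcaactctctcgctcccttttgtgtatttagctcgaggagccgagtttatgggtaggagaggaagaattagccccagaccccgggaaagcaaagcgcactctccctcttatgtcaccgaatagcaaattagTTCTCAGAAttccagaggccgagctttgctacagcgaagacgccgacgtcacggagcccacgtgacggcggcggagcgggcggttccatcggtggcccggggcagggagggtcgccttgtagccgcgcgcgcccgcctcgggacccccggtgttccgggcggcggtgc
Il1r2: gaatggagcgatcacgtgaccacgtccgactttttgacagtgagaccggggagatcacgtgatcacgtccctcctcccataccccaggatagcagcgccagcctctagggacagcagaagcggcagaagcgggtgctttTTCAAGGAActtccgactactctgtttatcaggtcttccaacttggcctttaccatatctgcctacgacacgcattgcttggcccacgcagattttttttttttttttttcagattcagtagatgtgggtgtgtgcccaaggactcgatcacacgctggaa

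Late neutrophil genes had the highest median of the lists, with 17 of 20 measured members higher, 0 lower and a median difference of 2.24 (12 higher by the methods' t-test). The list is a chosen set, and the stage of maturation at which its S100 and stefin genes appear was not tested. Cxcr2, the receptor that draws neutrophils towards CXC chemokines, read 10.34, 10.29 and 10.10 with both mutations, against 6.60, 6.56 and 6.97 with CEBPA_V314VW (11.6-fold, adjusted p = 6.43e-09). Il1r2, a receptor that captures interleukin-1 without signalling, read 9.38, 9.54 and 9.29 with both mutations and 5.78, 6.22 and 5.69 with CEBPA_V314VW (11.4-fold). Retnlg, a resistin-like secreted protein, was at background with CEBPA_V314VW and at least 8.04-fold higher with both mutations. Itgam, the integrin chain CD11b, read 11.27, 10.91 and 10.75 with both mutations and 9.16, 9.01 and 8.86 with CEBPA_V314VW (difference 1.97 ± 0.13), without overlap, as for every called rise. The 3 members that did not pass were Hdc (-0.14), Clec4d (-0.03) and G0s2 (0.10).

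Granule genes are given by the stage that makes them, and the difference between stages was not tested. Among genes of the secondary and tertiary granules, 10 of 14 rose, with 0 lower (median 1.26; 6 higher by the methods' t-test). Among 9 primary granule genes 1 rose and 8 did not pass (median 0.13; 0 higher by the methods' t-test). The gelatinase Mmp9 read 8.72, 8.22 and 8.42 with both mutations and 5.79, 5.45 and 4.94 with CEBPA_V314VW (8.36-fold, adjusted p = 1.27e-06). Chil3, a chitinase-like granule protein, rose by 2.63 ± 0.23, the surface protein Cd177 by 2.16 ± 0.12 and the neutrophilic granule protein Ngp by 2.03 ± 0.24, for which array B with CEBPA_V314VW was high (7.06, 8.13 and 7.04). Lcn2 (lipocalin, 1.37) and Hp (haptoglobin, 1.35) rose by less, and Ltf (lactoferrin, 0.27) and Camp (cathelicidin, -0.03) did not pass. In the primary granule list Elane, neutrophil elastase, read 13.16, 13.15 and 13.15 with both mutations and 12.26, 12.32 and 11.89 with CEBPA_V314VW (difference 1.00 ± 0.11, adjusted p = 9.07e-05). The myeloperoxidase gene Mpo and the serine protease genes Ctsg and Prtn3 had differences of -0.14, -0.13 and 0.07, which did not pass. Mpo averaged 13.74 ± 0.05 with both mutations and 13.88 ± 0.03 with CEBPA_V314VW (SD, n = 3 each), at the upper end of the table's values, whose highest is 13.919. Whether signal saturation limits the differences of these genes was not tested.

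Promoter windows of 3 rising genes of these groups that hold the C/EBP letters are shown for comparison with the STAT ones, S100a9 (chr3:90695672-90695971, minus strand), Stfa1 (chr16:36276898-36277197, plus strand) and Ngp (chr9:110419558-110419857, plus strand), which has 2 matches, with the matches in capitals. The window of Ngp is the only one of the 6 shown with more than 1 match. These windows too were chosen for a match. Among other S100 and stefin genes, Cstdc5 held 1 C/EBP match, and S100a8, Stfa2, Stfa2l1, Stfa3, Csta2 and Cstdc4 held 0.
S100a9: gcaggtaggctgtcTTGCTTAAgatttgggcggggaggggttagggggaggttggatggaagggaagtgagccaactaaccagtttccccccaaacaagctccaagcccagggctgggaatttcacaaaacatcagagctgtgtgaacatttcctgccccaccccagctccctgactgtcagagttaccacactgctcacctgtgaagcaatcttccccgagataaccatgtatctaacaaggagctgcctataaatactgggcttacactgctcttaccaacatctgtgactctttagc
Stfa1: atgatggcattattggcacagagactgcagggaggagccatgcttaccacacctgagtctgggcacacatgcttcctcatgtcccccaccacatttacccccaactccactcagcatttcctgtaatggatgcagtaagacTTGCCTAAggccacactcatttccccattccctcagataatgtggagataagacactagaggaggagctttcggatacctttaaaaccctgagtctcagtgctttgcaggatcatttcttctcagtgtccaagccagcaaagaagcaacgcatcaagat
Ngp: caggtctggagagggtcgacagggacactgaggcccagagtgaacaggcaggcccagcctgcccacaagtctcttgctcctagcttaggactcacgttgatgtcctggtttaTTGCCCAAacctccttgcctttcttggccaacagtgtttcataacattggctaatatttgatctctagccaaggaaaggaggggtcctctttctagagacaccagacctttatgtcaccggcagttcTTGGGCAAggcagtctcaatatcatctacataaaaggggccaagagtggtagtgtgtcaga

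Many microbial defence genes also rose. Of 5 measured NADPH oxidase genes, whose complex makes superoxide, 4 rose (2 by the methods' t-test) and Rac2 did not pass (0.20). Cybb, the catalytic gp91phox subunit, read 9.31, 9.05 and 9.16 with both mutations and 5.52, 6.32 and 6.11 with CEBPA_V314VW (9.15-fold, adjusted p = 1.42e-07). Its membrane partner Cyba (0.72 ± 0.14) and the cytosolic subunit Ncf1 (0.73 ± 0.10) rose far less. The subunit Ncf4 rose by 0.66 ± 0.16 (adjusted p = 0.0245), which did not pass without either of 2 arrays of CEBPA_V314VW (B and C) or 2 with both mutations (A and B), with adjusted p from 0.0584 to 0.101. Of 14 pattern recognition genes 8 rose, 1 fell and 5 did not pass (median 0.96), against 4 higher and 0 lower by the methods' t-test. Tlr13, a sensor of bacterial ribosomal RNA, was at background with CEBPA_V314VW (4.24, 4.37 and 3.69) and read 7.49, 8.04 and 7.74 with both mutations, at least 6.45-fold higher. Tlr2, the lipoprotein receptor, read 9.55, 9.59 and 9.56 with both mutations and 7.09, 7.34 and 7.02 with CEBPA_V314VW (5.33-fold). Tlr1, which pairs with it, rose by 2.25 ± 0.30, and the RNA sensor Tlr7 by 1.85 ± 0.28. Irak3, an inhibitor of Toll-like receptor signalling, fell by 0.62, and Cd14 (0.35) did not pass.

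Inflammatory genes rose in part. Of 20 NF-kB and inflammatory genes 11 rose and 0 fell (median 0.55; 5 higher by the methods' t-test). The chemokine Ccl3 read 9.43, 9.40 and 9.05 with both mutations and 7.61, 7.10 and 7.46 with CEBPA_V314VW (difference 1.90 ± 0.18). Tnfaip2 rose by 1.90 ± 0.13 and Il1rn, the interleukin-1 receptor antagonist, by 1.28 ± 0.26. Nos2, inducible nitric oxide synthase, was at background with CEBPA_V314VW (5.27, 4.65 and 4.65) and read 7.17, 6.54 and 6.52 with both mutations, at least 3.09-fold higher (adjusted p = 0.000208, and 0.0815 by the methods' t-test). The factors Rela (0.00), Relb (0.13) and Rel (0.19) did not pass. Of 19 interferon response genes 1 rose, 18 did not pass and 8 were at background with CEBPA_V314VW. The gene that rose (0 rose by the methods' t-test) was Irf7, a regulator of type I interferon genes, at background with CEBPA_V314VW and at least 1.91-fold higher with both mutations, with 6.35, 5.81 and 6.44 with both mutations and 4.86, 5.28 and 5.41 with CEBPA_V314VW (adjusted p = 0.0187), which did not pass without array A of CEBPA_V314VW or arrays A or C with both mutations (adjusted p from 0.0788 to 0.0934).

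**Figure D2:**
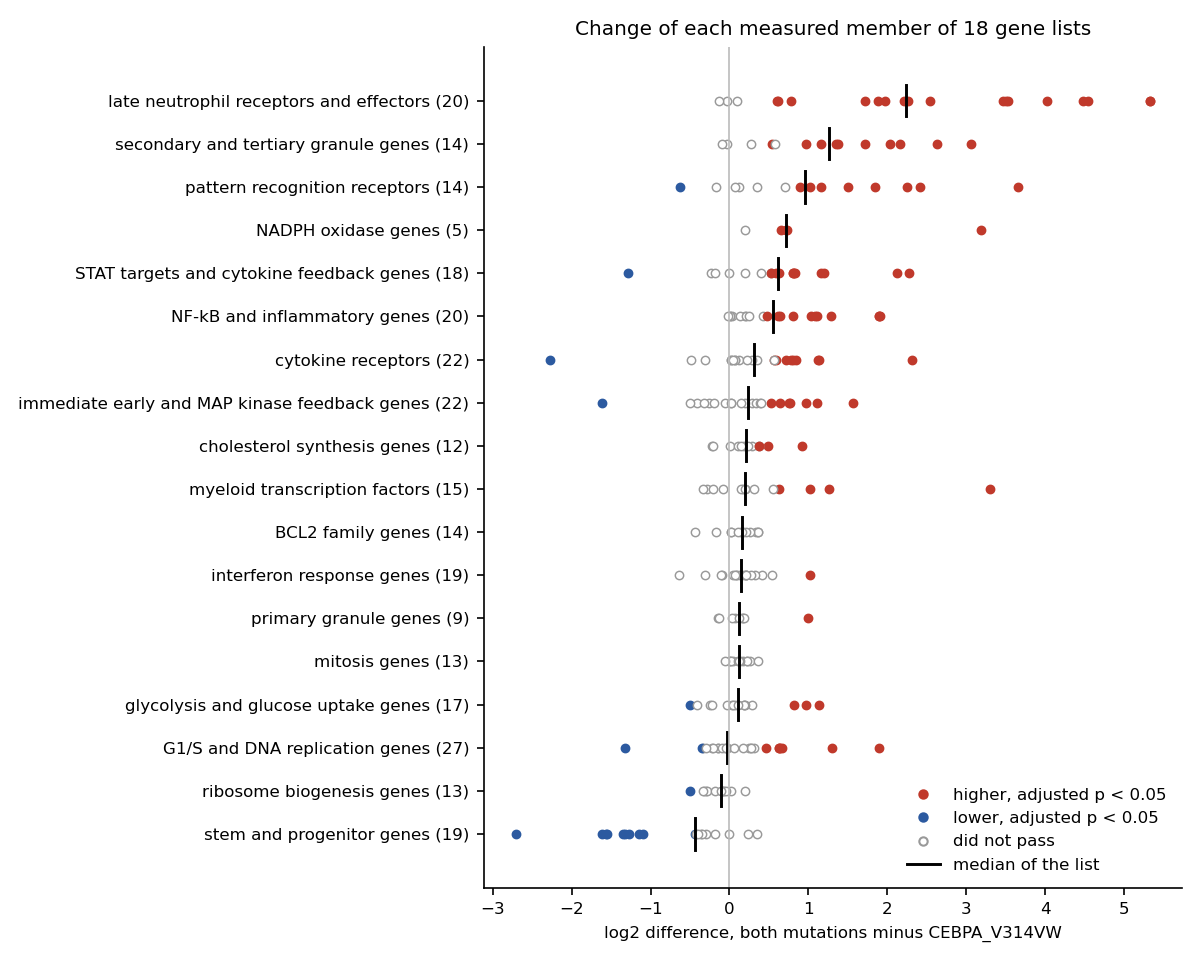
Log2 difference, both mutations minus CEBPA_V314VW, of each measured member of 18 gene lists ordered by their medians (black bars), with the number measured in brackets; filled points passed the adjusted p, red higher and blue lower. Late neutrophil genes have the highest median (2.24) and stem and progenitor genes the lowest (-0.44).

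Many stem and progenitor genes were lower with both mutations. Of 19 measured members 10 fell, 0 rose and 9 did not pass (median -0.44; 7 lower by the methods' t-test). Cd34, the progenitor sialomucin, read 9.85, 9.91 and 9.87 with both mutations, against 11.53, 11.53 and 11.43 with CEBPA_V314VW (3.07-fold lower, adjusted p = 4.47e-06). Kit, the stem cell factor receptor, read 9.82, 9.70 and 9.83 with both mutations and 11.26, 11.43 and 11.37 with CEBPA_V314VW (2.97-fold lower, adjusted p = 7.32e-07). Adgrg1, an adhesion G protein-coupled receptor of stem cells, fell by 1.55 ± 0.12. The arrays of each group lay close to each other for these genes and the groups were wide apart. Flt3, a cytokine receptor of early progenitors, was at background with both mutations and fell at least 2.17-fold. Bcl2 (-1.35), Ikzf2 (-1.27), Meis1 (-1.14) and Sox4 (-1.09) fell as well. Myb, which the study names, fell by 0.44 ± 0.09 (adjusted p = 0.00666, and 0.0573 in a fit of the 6 arrays alone). Myc (-0.30), Erg (-0.43), Gata2 (-0.36) and Lmo2 (-0.40) did not pass.

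Of 15 myeloid transcription factors measured, 4 rose, 0 fell and 11 did not pass (median 0.20), a share of 26.7% against 3.57% of all probe sets. The methods' t-test passed 1. Id2, an inhibitor of basic helix-loop-helix factors, read 9.40, 9.07 and 9.06 with both mutations and 5.69, 5.67 and 6.25 with CEBPA_V314VW (9.87-fold, adjusted p = 3.58e-08). Klf5 was at background with CEBPA_V314VW and at least 1.83-fold higher with both mutations. Bcl6, a repressor named by the study, rose by 1.03 ± 0.14, with 8.47, 8.20 and 8.40 with both mutations and 7.35, 7.01 and 7.63 with CEBPA_V314VW (adjusted p = 0.000495, and 0.117 by the methods' t-test). Cebpe, the C/EBP factor of late granulocytes, rose by 0.63 ± 0.11 (adjusted p = 0.00321). Spi1 (0.19), Gfi1 (0.17), Irf8 (-0.28) and Runx1 (-0.33) did not pass. Pla2g7, a phospholipase that the study names beside Bcl6 and Nos2, rose by 1.24 ± 0.15 (adjusted p = 0.000109, and 0.0613 by the methods' t-test). Over the 9 measured genes that the study names, 6 rose, 1 fell and 2 did not pass. By the methods' t-test 3 rose, without Nos2, Bcl6 and Pla2g7, and 1 fell, and 0 fell in the fit of the 6 arrays alone. The study chose several of them on these arrays, so this count is not independent evidence of a direction.

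Cell cycle genes moved in both directions. Of 27 genes of the G1/S transition and DNA replication 7 rose, 2 fell and 18 did not pass (median -0.03; 3 higher and 2 lower by the methods' t-test), and Mcm6 (-0.34), a helicase subunit, was 1 of the 2 that fell; leaving out any array but A or C of CSF3R_T618I left 1 that fell. By limma 0 of 13 mitosis genes rose or fell (at an unadjusted p below 0.05, 3 were higher and 0 lower; 0 passed the methods' t-test after adjustment, and 3 rose with a trended prior variance), with differences from -0.06 to 0.37. E2f2, an activating E2F factor, read 11.14, 11.15 and 11.12 with both mutations, against 9.42, 9.15 and 9.15 with CEBPA_V314VW (3.73-fold, adjusted p = 1.08e-06). Ccnd2, cyclin D2, read 9.23, 9.70 and 9.50 with both mutations and 10.91, 10.79 and 10.72 with CEBPA_V314VW, and fell by 1.33 ± 0.13. The inhibitors Cdkn2d (p19) and Cdkn1a (p21) rose by 1.31 ± 0.19 and 0.67 ± 0.14, and Ccne1, Ccne2 and Ccnd3 by 0.63, 0.63 and 0.47. E2f1 (-0.03) and E2f3 (-0.03) did not pass. By limma 0 of 14 BCL2 family genes passed in either direction (at an unadjusted p below 0.05, 2 were higher and 1 lower; 0 passed the methods' t-test after adjustment, and 1 rose with a trended prior variance), with differences from -0.44 to 0.36. This count leaves out Bcl2 itself, which was counted among the progenitor genes.

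Most immediate early and MAP kinase feedback genes did not pass, and MAP kinase activity itself was not measured. Of 22 immediate early and feedback genes 7 rose, 1 fell and 14 did not pass (median 0.24), against 2 higher and 1 lower by the methods' t-test. Fos read 9.41, 9.21 and 9.55 with both mutations and 8.05, 7.47 and 7.94 with CEBPA_V314VW (difference 1.57 ± 0.21), and Egr1 rose by 1.10 ± 0.22 and Ier3 by 0.97 ± 0.11. Dusp6, a phosphatase of ERK, read 7.99, 8.17 and 7.89 with both mutations and 9.81, 9.48 and 9.61 with CEBPA_V314VW, and fell by 1.62 ± 0.12 (adjusted p = 1.39e-06). Other ERK brakes did not move as one: Spry2 rose by 0.64 and Dusp1 by 0.77, while Spry1 (-0.50), Spred2 (-0.33) and Dusp4 (-0.26) did not pass.

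Few members of the biosynthetic lists passed. Of 13 ribosome biogenesis genes 1 fell (0 by the methods' t-test), Wdr12 by 0.50 (adjusted p = 0.0431), and it did not pass when any 1 of 9 arrays was left out, all but array C of CSF3R_T618I, B of CEBPA_V314VW and B with both mutations (adjusted p from 0.0511 to 0.176). Of 12 cholesterol synthesis genes 3 rose (1 by the methods' t-test). Fdps, farnesyl diphosphate synthase, rose by 0.92 ± 0.12 (adjusted p = 0.000237). Fdft1 (0.48, adjusted p = 0.0184) did not pass without array A or B of CEBPA_V314VW or array B or C with both mutations (adjusted p from 0.0502 to 0.0775), and Sc5d (0.38, adjusted p = 0.0442) did not pass when any 1 of 10 arrays was left out, all but array C of CSF3R_T618I and array C with both mutations (adjusted p from 0.0525 to 0.155). Of 17 glycolysis and glucose uptake genes 3 rose (1 by the methods' t-test), all of them transporters of the plasma membrane. The lactate carrier Slc16a3 rose by 1.14 ± 0.10 and the glucose carriers Slc2a3 and Slc2a1 by 0.97 ± 0.13 and 0.82 ± 0.13, whereas the enzymes Pkm (0.19), Ldha (0.11) and Gapdh (-0.03) did not pass. The member that fell (0 fell by the methods' t-test), the hexokinase Hk3, fell by 0.51 (adjusted p = 0.0151), and did not pass without array B or C of CEBPA_V314VW or array B with both mutations (adjusted p from 0.051 to 0.0666).

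Markers of cell types were read on the same arrays. The sums of linear signal given for each marker list, here and in the next paragraph, are ruled by its brightest probe sets and include background. They are not amounts of a cell type. Of 15 markers of granulocyte-macrophage progenitors and neutrophils 7 rose and 2 fell (Cd34 and Kit), 0 were at background in either group, and their summed linear signal ran from 68753.5 to 73554.4 per array with both mutations and from 52121.4 to 54992.4 with CEBPA_V314VW. Over the 20 alternative settings, the methods' t-test among them, 5 to 7 of these markers rose and 2 fell. Of 13 monocyte, macrophage and dendritic cell markers 4 rose and 1 fell (1 and 0 by the methods' t-test), with sums of 5789.9 to 6810 with both mutations and 5365 to 5894.2 with CEBPA_V314VW. Adgre1 (F4/80) rose by 1.68 ± 0.12 and Csf1r as above, F13a1 rose by 0.46, and Ccr2, a chemokine receptor of monocytes, fell by 1.13 ± 0.19. Itgax passed (0.86) but lay at background in both groups, as did C1qa and Mrc1, and it did not pass without array B or C of CEBPA_V314VW or array A or B with both mutations (adjusted p from 0.102 to 0.114). With CEBPA_V314VW C, both mutations A or both mutations B left out, 2 of these markers rose. The part of monocytic cells in the other results was not tested.

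Among the 13 markers measured for eosinophils, basophils and mast cells, 2 fell (0 by the methods' t-test) and 0 rose, 3 (Il5ra, Ccr3 and Mcpt4) were at background in both groups, and the sums ran from 7710.8 to 8937.3 with both mutations and 9847.1 to 12172.5 with CEBPA_V314VW. The basophil protease Prss34 read 9.43, 10.01 and 9.97 with both mutations and 11.14, 10.36 and 11.10 with CEBPA_V314VW (-1.07), and Cpa3, mast cell carboxypeptidase, fell by 0.78 ± 0.16. Outside this list, the mast cell protease Mcpt1 went the other way. It was at background with CEBPA_V314VW and at least 3.98-fold higher with both mutations (adjusted p = 0.0889 by the methods' t-test). Its neighbour Mcpt2 was also called higher. Of 9 erythroid and megakaryocyte markers 1 fell (0 by the methods' t-test), carbonic anhydrase Car2 by 1.31 ± 0.26, 0 were at background, and the sums ran from 1267 to 1351.3 with both mutations and from 1492.5 to 1582.5 with CEBPA_V314VW. Of 9 lymphoid markers, with sums of 503.9 to 615.1 with both mutations and 482.7 to 618.3 with CEBPA_V314VW and with Cd3d and Klrb1c at background in both, 1 rose, the interleukin-7 receptor Il7r by 1.52 ± 0.22, and 1 fell, Ebf1 (-0.67), which did not pass when any 1 of 6 arrays was left out (B and C of empty vector, B and C of CEBPA_V314VW, A and C with both mutations; adjusted p from 0.0526 to 0.143). The methods' t-test passed 0 lymphoid markers. The part of these cell types in the other results was not tested.

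Some of the rising genes were neighbours. Among 19482 tested genes placed in RefSeq order, the 282 called higher included 25 runs of 2 or more next to each other, holding 61 genes, and 8 runs of 3 or more, holding 27 genes. The 111 called lower genes placed in this order held 2 runs with 4 genes, Il17rb with Chdh and Kcna3 with AI504432. The number of runs among equally many genes drawn from all those placed was not worked out. Neither count thus shows a tendency of called genes to lie together. The longest runs were both on chromosome 16, Stfa2l1, Cstdc4, Csta3, Csta2 and Stfa1 in a run of 5 and Cstdc6, Cstdc5, Stfa2 and Stfa3 in a run of 4. Runs of genes from different families included Bcl6 with Lpp and Asprv1 with Mxd1. Runs of related genes included the cytokine receptor chains Il4ra with Il21r, the coagulation proteases F7 with F10, S100a8 with S100a9, Cxcr2 with Cxcr1, Tlr8 with Tlr7, the Schlafen genes Slfn2, Slfn1 and Slfn4, and the inhibitors Serpinb9e, Serpinb9f and Serpinb9g, and for close copies among these shared probes cannot be told apart from shared change.

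The receptor was then compared with its effect in cells without CEBPA_V314VW, from 3 arrays with CSF3R_T618I and 3 with empty vector that share none with the comparison above but were normalised with it. Both comparisons also used the same estimate of spread for each probe set, so their calls are not independent. There 302 probe sets were called higher (1.36%) and 77 lower (0.348%), 1.71% in all, and by the adjusted p alone 3.75% rose and 2.64% fell. Of the 311 probe sets called higher with both mutations, 236 were also called higher by CSF3R_T618I alone, 75.9% of the 311 and 78.1% of the 302, and 307 had the same sign. Of the 126 called lower, 52 were also called lower, 41.3% of the 126 and 67.5% of the 77, and 121 had the same sign. Across 22142 probe sets the differences of both comparisons correlated at r = 0.72, which is a description over probe sets that are not independent and were normalised together. E2f2 rose by 1.90 ± 0.13 with both mutations against CEBPA_V314VW and by 1.94 ± 0.13 with CSF3R_T618I against empty vector. Kit fell by 1.57 ± 0.10 in the comparison with CEBPA_V314VW, and its difference was -1.67 ± 0.10 without it. Tlr2 rose by 2.42 ± 0.13 in the comparison with CEBPA_V314VW and by 2.44 ± 0.13 without it.

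**Figure D3:**
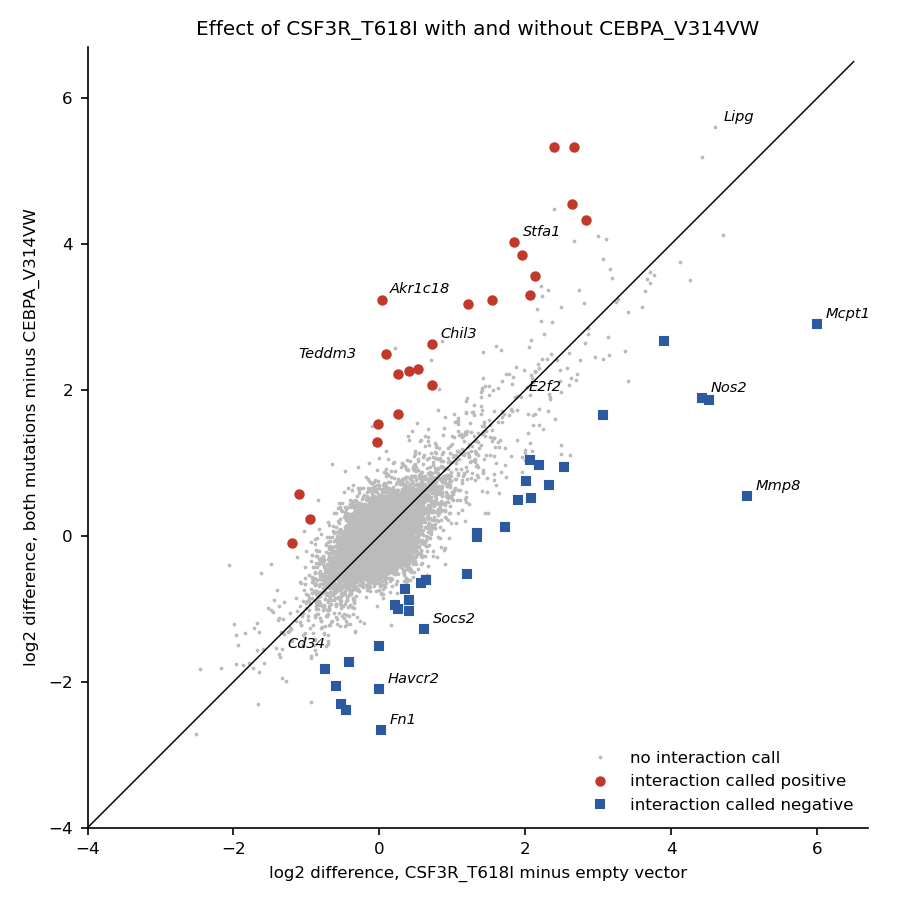
Each point is 1 of 22142 probe sets, with the log2 difference of both mutations minus CEBPA_V314VW on the vertical axis against that of CSF3R_T618I minus empty vector on the horizontal axis; the line marks equal differences. Circles (23) and squares (34) are probe sets with a called positive or negative interaction, and genes near the line such as E2f2 and Cd34 were called in neither direction.

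Whether the receptor's effect differed was tested by the interaction, the difference with CEBPA_V314VW minus that without it. It was called positive for 23 probe sets (0.104%) and negative for 34 (0.154%). The negative calls numbered 20 without array A with both mutations and 22 without array B with both mutations. Of the 311 called higher here 20 had a positive and 6 a negative interaction, and of the 126 called lower 0 had a positive and 11 a negative one. For the other 285 and 115 no difference between the settings was called, which does not show that the effects were equal. Where a group mean lies at background the interaction is a difference of measured signals that include background, so its size is approximate; this holds for Teddm3, Akr1c18, Mcpt1, Nos2, Serpinb2, Havcr2, Rgs7bp, Ypel2 and Il31ra among the genes below.

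Positive interactions were called for S100a8 and some of the stefins, whose group means were lower with CEBPA_V314VW than with empty vector and which were higher with the receptor in both settings. Stfa2l1 averaged 11.56 ± 0.38 with both mutations and 6.23 ± 0.35 with CEBPA_V314VW, and 12.26 ± 0.28 with CSF3R_T618I and 9.86 ± 0.31 with empty vector (SD, n = 3 each). Its interaction was 2.94 ± 0.33 (adjusted p = 0.00178), and those of Stfa2, Stfa1, Cstdc5 and Cstdc4 were 2.67 ± 0.37, 2.18 ± 0.18, 1.89 ± 0.16 and 1.50 ± 0.17. Csta2 (1.11 ± 0.23, adjusted p = 0.0857), Csta3 (-0.19) and Stfa3 (-0.47) did not pass. S100a8 averaged 11.72 ± 0.16 with both mutations and 7.17 ± 0.34 with CEBPA_V314VW, and 12.21 ± 0.20 with CSF3R_T618I and 9.56 ± 0.23 with empty vector (interaction 1.91 ± 0.25, adjusted p = 0.0053). In none of the genes with a positive call in this family, nor in S100a8, did the mean with both mutations exceed that with CSF3R_T618I. S100a9 had an interaction of 2.09 ± 0.42 that did not pass (adjusted p = 0.0749).

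Akr1c18, an aldo-keto reductase that inactivates progesterone, followed another pattern. It averaged 10.29 ± 0.31 with both mutations and 7.06 ± 0.36 with CEBPA_V314VW, and was at background with CSF3R_T618I (4.90 ± 0.29) and with empty vector (4.86 ± 0.19). Its difference was 3.24 ± 0.21 with CEBPA_V314VW (interaction 3.21 ± 0.30, adjusted p = 0.000493). Teddm3 was above background in 1 group, that with both mutations, at 6.94 ± 0.08, and at least 3.65-fold higher than with CEBPA_V314VW (interaction 2.40 ± 0.29, adjusted p = 0.00294). Chil3 was highest with both mutations at 11.33 ± 0.52, against 8.70 ± 0.26 with CEBPA_V314VW (interaction 1.91 ± 0.32, adjusted p = 0.0267), and Id2 had an interaction of 1.24 ± 0.22 (adjusted p = 0.0383). The Chil3 interaction did not pass when any 1 of 9 arrays was left out, all but CSF3R_T618I A, CEBPA_V314VW B and both mutations C (adjusted p from 0.0521 to 0.0882), and that of Id2 did not pass when any array but CEBPA_V314VW C was left out (0.0572 to 0.117).

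Among the named genes with negative interactions, some had their highest group mean with CEBPA_V314VW and were lower with both mutations. Fn1 averaged 5.73 ± 0.27 with both mutations and 8.39 ± 0.25 with CEBPA_V314VW, and 6.12 ± 0.10 with CSF3R_T618I and 6.09 ± 0.07 with empty vector (interaction -2.69 ± 0.22, adjusted p = 0.000183). Havcr2 averaged 5.99 ± 0.33 with both mutations and 8.09 ± 0.06 with CEBPA_V314VW, and was at background in the groups without it (interaction -2.10 ± 0.30). Rgs7bp (-1.94 ± 0.21), Ypel2 (-1.47 ± 0.21), Il31ra (-1.78 ± 0.31) and Arhgap32 (-1.07 ± 0.19) had negative interactions as well, the last 2 with calls that depended on the arrays used: Il31ra did not pass when any 1 of 9 arrays was left out, all but CSF3R_T618I A, CEBPA_V314VW B and both mutations C (adjusted p from 0.0627 to 0.104), and Arhgap32 did not when any array but empty vector C and CEBPA_V314VW C was left out (0.0642 to 0.113). Socs2 averaged 7.98 ± 0.20 with both mutations and 9.26 ± 0.06 with CEBPA_V314VW, a fall, but 6.80 ± 0.17 with CSF3R_T618I and 6.18 ± 0.28 with empty vector, a rise of 0.61 ± 0.15 (interaction -1.90 ± 0.21, adjusted p = 0.00178).

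Others rose with the receptor in both settings, but by less with CEBPA_V314VW. Nos2 averaged 6.75 ± 0.37 with both mutations and 4.85 ± 0.36 with CEBPA_V314VW, and 9.48 ± 0.08 with CSF3R_T618I and 5.06 ± 0.45 with empty vector (interaction -2.53 ± 0.34, adjusted p = 0.0053). Serpinb2, an inhibitor of plasminogen activators, averaged 7.68 ± 0.37 with both mutations and 5.81 ± 0.45 with CEBPA_V314VW, against 9.71 ± 0.19 with CSF3R_T618I and 5.20 ± 0.36 with empty vector (interaction -2.65 ± 0.35). Mcpt1, a mast cell protease with close relatives on the array, averaged 7.06 ± 0.76 with both mutations and 4.15 ± 0.34 with CEBPA_V314VW, and 9.63 ± 0.51 with CSF3R_T618I and 3.63 ± 0.22 with empty vector, where it was at background as it was with CEBPA_V314VW (interaction -3.10 ± 0.48, adjusted p = 0.0139, which was 0.0521 without empty vector A and 0.0561 without both mutations A). The glucose carrier Slc2a3 had an interaction of -1.22 ± 0.19 (adjusted p = 0.0142), with 0.053 to 0.0544 without empty vector A, CSF3R_T618I B or both mutations B. The largest of all, singled out after its values were seen, was that of Mmp8, neutrophil collagenase, at -4.50 ± 0.18 (adjusted p = 8.11e-08). Mmp8 averaged 12.72 ± 0.19 with both mutations and 12.18 ± 0.08 with CEBPA_V314VW, a difference of 0.54 ± 0.13, whereas it averaged 11.39 ± 0.15 with CSF3R_T618I and 6.35 ± 0.12 with empty vector. Unlike Nos2 and Mcpt1, it was thus already high with CEBPA_V314VW. The highest of all values was 13.919, and whether signal saturation limits the rise of Mmp8 there was not tested.

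**Figure D4:**
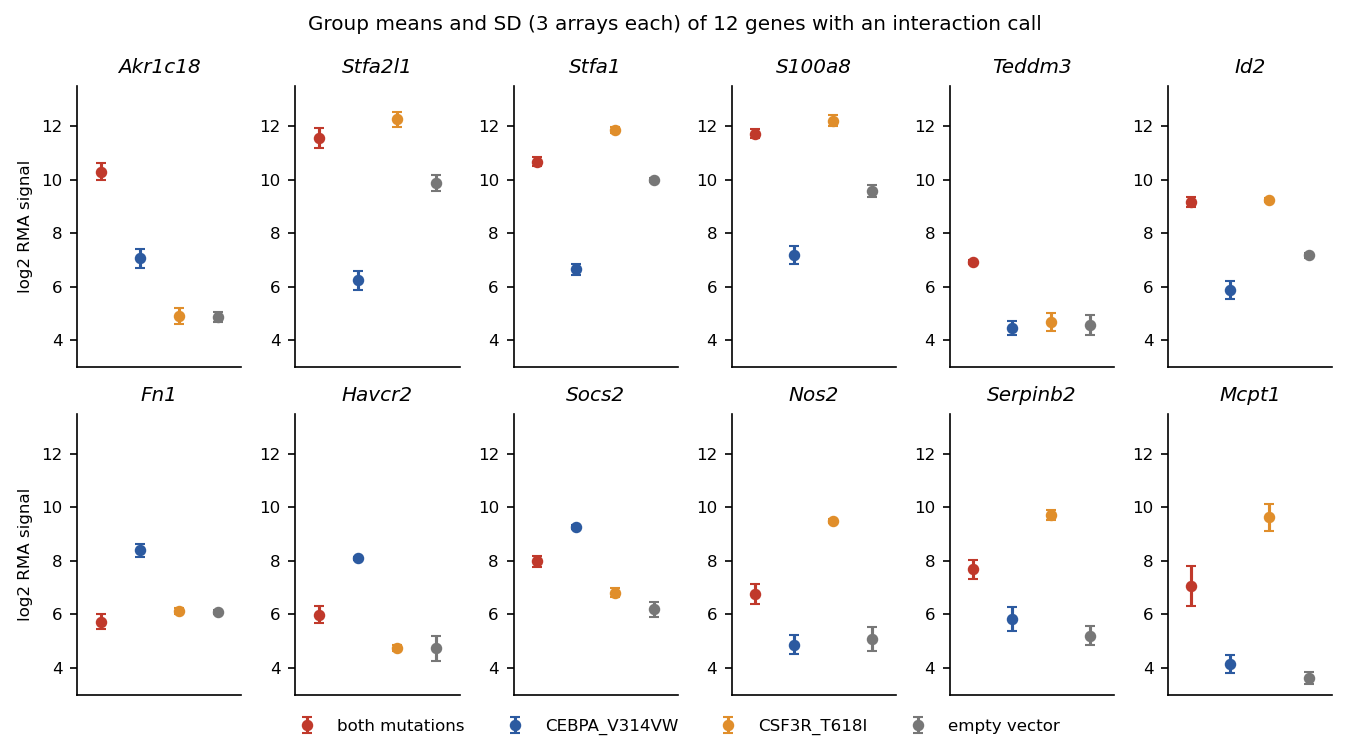
Group means with SD (3 arrays each) of the log2 signal of 12 genes with a called interaction, in the order both mutations, CEBPA_V314VW, CSF3R_T618I and empty vector. Stefins, S100a8 and Id2 are lowest with CEBPA_V314VW, Akr1c18 and Teddm3 are highest with both mutations, Fn1, Havcr2 and Socs2 are highest with CEBPA_V314VW, and Nos2, Serpinb2 and Mcpt1 are highest with CSF3R_T618I.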

How the data were processed

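RNA of 12 cultures (100 ng each) was amplified with the WT Plus protocol in randomised order and measured on Clariom S Mouse arrays. Deposited values are log2 signals that the authors summarised by RMA in Affymetrix Expression Console, with settings, version and annotation build not given in the sources used here. They ran from 1.738 to 13.919, with gene medians of 6.592 to 6.76 per array, and were used unchanged. RMA gives arrays like distributions, so a shift shared by most genes would not be seen, and precision is limited by the number of arrays.

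Of 28846 probe sets, 6640 controls were left out and 22206 tested. A single symbol, from GEO's platform annotation and RefSeq, was available for 19527 of the 22142 counted, and 2615 are unnamed here. A symbol with several probe sets was read from the brightest. Tests used limma 3.58.1 in R 4.3.3, with 1 mean per group over 12 arrays and Benjamini-Hochberg adjustment over 22206 probe sets per contrast. P-values measure only the spread between these arrays. Members, tests, 24 gene lists (338 of 383 genes measured) and naming rule were chosen with earlier results of these data known. Named by the rule were the study's genes, the 15 largest called rises and falls without predicted gene models, at most 4 passing members per list by size of change, and the 5 largest positive and negative interactions among probe sets called in both tests. Promoter windows were found for 320 of 393 called genes, the first listed being used.

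Same-letter arrays (A, B, C) deviated from their group means with correlations of -0.024, -0.131 and 0.01, so letters were not taken to pair arrays. Alternatives were the 6 arrays alone, the letter as a block, quantile normalisation, median centring, dim probe sets left out, array weights, a trended prior, the methods' t-test and each array left out.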

Additional observations from a re-analysis of the deposited data

Results flagged for a closer look

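Results are given here where the effect of CSF3R_T618I differed between cells with and without CEBPA_V314VW by the interaction test, as the log2 difference between both effects. In all, 23 probe sets had a called positive and 34 a called negative interaction. Where a group lies at background the size is approximate, as stated above. Among the genes taken by the naming rule the positive ones were Akr1c18 (3.21), Stfa2l1 (2.94), Stfa2 (2.67), Teddm3 (2.40), Stfa1 (2.18), S100a8 (1.91), Chil3 (1.91), Cstdc5 (1.89), Cstdc4 (1.50) and Id2 (1.24). The largest of all in size, outside that rule, was the negative interaction of Mmp8 (-4.50). The negative ones within the rule were Mcpt1 (-3.10), Fn1 (-2.69), Serpinb2 (-2.65), Nos2 (-2.53), Havcr2 (-2.10), Rgs7bp (-1.94), Socs2 (-1.90), Il31ra (-1.78), Ypel2 (-1.47), Slc2a3 (-1.22) and Arhgap32 (-1.07). Of other genes named above, Cstdc6 (1.43), Cxcr1 (1.77), F7 (1.96), F10 (1.34) and Serpinb9g (1.68) had called positive interactions, and Mcpt4, at background in all 4 groups, a called negative one. With 3 arrays per group no test for a single outlying array was made.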

How the results depend on the processing

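Among 94 named genes that passed by the adjusted p alone, the direction turned in 0 under the 20 alternatives run. By the same measure 34 did not pass in at least 1 alternative, of which 33 under the methods' t-test. That test, as run here, gave 196 probe sets called higher and 68 called lower, and by the adjusted p alone 311 higher and 208 lower, against 311, 126, 791 and 682. The 6 arrays alone gave 617 higher and 445 lower by the adjusted p alone, and there the adjusted p of Myb was 0.0573. Without CEBPA_V314VW array A, CEBPA_V314VW array C or both mutations array A, 433, 442 and 453 probe sets were lower by the adjusted p alone. Leaving out each of the 12 arrays in turn gave 433 to 817 lower by the adjusted p alone, 294 to 315 called higher, 116 to 147 called lower, 16 to 27 positive and 20 to 32 negative interactions; leaving out the 6 arrays of CSF3R_T618I and empty vector was chosen after seeing the data for the main comparison. Array quality weights gave 39 positive interactions, and a prior variance with a trend 41, chosen after seeing the data. With the letter as a replicate block 308 probe sets were called higher and 126 lower, and of the 437 called without the block 434 were called. By the adjusted p alone 3 named genes no longer passed with the block. The share of calls that were higher stayed between 66.7% and 74.2%, against 71.2%. Leaving out both mutations C gave 2 lower MAP kinase feedback genes, leaving out both mutations B gave 1 lower interferon gene, and leaving out CSF3R_T618I C gave 2 lower genes each among glycolysis genes and lymphoid markers. The cause of these changes was not tested. Genes near the background, and families with near-identical members, are the least certain.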
